A study of Mus musculus with 26 samples.

Results

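The 5 EC KO libraries were compared with the 5 HSC wt libraries, 10 of the 26 libraries of the series, over all 13379 genes with enough counts to test. All libraries hold RNA of LSK cells, the Lin-, Sca-1+, c-Kit+ fraction of bone marrow that contains stem and multipotent progenitor cells, and all come from C57BL/6 mice that carry SCLtTA/BCR-ABL, in which stem and progenitor cells express the oncogene of chronic myeloid leukaemia. The EC KO mice lacked Spred1 in endothelial cells, the cells that line vessels, and the driver of that deletion is not named in the sources used here. The HSC wt mice were Spred1-intact, and Mx1-cre, an interferon-inducible recombinase, had been activated in them with 7 intraperitoneal doses of 250 µg poly(I:C), a double-stranded RNA mimic, given every 2 days. The labels do not say if poly(I:C) was also given to EC KO mice, and their own wild-type control was not analysed here, so the endothelial deletion cannot be told apart from Mx1-cre with poly(I:C) or from differences between the lines. Spred1 wt, the other Spred1-intact group (5 libraries), is given beside the results.

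Spred1 encodes a membrane-anchored protein that recruits neurofibromin to RAS and thereby dampens RAS-ERK signalling. Endothelial cells form part of the bone marrow niche and supply stem cells with adhesion molecules and growth factors such as the Kit ligand. A deletion in endothelial cells leaves Spred1 intact in LSK cells unless the recombinase was also active in blood precursors.

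Total counts ranged from 18487602 to 24114819 in EC KO and from 16284176 to 26714325 in HSC wt. Levels are in CPM, counts scaled to a common library size, with the mean ± SD over 5 libraries. Xist, the transcript of the inactive X chromosome, marked EC KO 22 and 23 and HSC wt 20 and 21 as female, and transcripts of Y-linked genes marked the other 6 libraries. The first principal component of these 10 libraries held 44.27% of the variance, with Y-linked, erythroid and macrophage genes at its high end and mast cell genes and Xist at its low end. EC KO 24, 25 and 26 scored 41.16, 46.76 and 53.81 on it, whereas EC KO 22 and 23 scored -15.25 and -23.51 and lay within the HSC wt range of -29.75 to -10.06. Within EC KO this division was the same as that between Xist and Y transcripts. Sex and cell type genes therefore cannot be told apart in it.

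With edgeR's quasi-likelihood test and Benjamini-Hochberg adjusted p under 0.05, 1507 genes differed, 11.3% of those tested. In EC KO 701 genes were higher (5.24%) and 806 were lower (6.02%). Most differences were small, and 73% of the genes called moved by less than 0.5 on the log2 scale. In all, 76 genes rose and 90 fell by more than 1, and the median log2 difference of all genes was 0.03. The count of EC KO vs HSC wt fell to 746 without EC KO 24, 861 without EC KO 25, 858 without HSC wt 17 and 895 without HSC wt 18. Against Spred1 wt, EC KO differed in 1065 genes (7.96%), 467 higher (3.49%) and 598 lower (4.47%). These comparisons share the EC KO libraries and are not independent of each other.

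The Spred1-intact groups differed from each other in 4 genes by edgeR (0.0299%), all lower in HSC wt (0.0299%) and 0 higher (0%), with 850 genes at an unadjusted p under 0.05 and 32 called by DESeq2, of which 12 were higher. The 4 were Kcnip3, Slamf9, Spint1 and Sqrdl, named after their values were seen. Kcnip3, a calcium-binding channel regulator, stood at 0.802 CPM in HSC wt, 10.1 in Spred1 wt and 0.713 in EC KO. It stood at 0.691 CPM in HSC KO and 1.08 CPM in global KO, which lacked Spred1 in blood-forming cells and globally. Slamf9, Spint1 and Sqrdl also had their highest group mean in Spred1 wt. Kcnip3, Spint1 and Sqrdl lie on chromosome 2, between 119237360 and 127522094.

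Spred1 (mm10, chromosome 2, 117121071 to 117182277) stood at 83.9, 80.9, 58, 63 and 66 CPM in EC KO and at 96.8, 109, 106, 107 and 101 CPM in HSC wt. Every EC KO library lay below every HSC wt library. Such separation, also reported for genes below, was found in 10.2% of all 13379 tested genes, 586 higher and 784 lower in EC KO. The mean was 70.3 ± 11.4 against 104 ± 4.9 CPM, a log2 difference of -0.56 (SE 0.15, edgeR adjusted p = 0.0167). The call was lost without EC KO 24 or EC KO 25, where the larger edgeR adjusted p was 0.0638, and the log2 difference was -0.20 with the level of mast cell genes as a covariate (edgeR adjusted p = 0.23) and -0.32 with that of macrophage genes (edgeR adjusted p = 0.0467). The mean level in EC KO lay between that of the Spred1-intact libraries and the 35.4 CPM of HSC KO, in which Spred1 was deleted in blood-forming cells. Of the 13 genes tested for Spred proteins and activators of RAS GTPase, 1 rose and 3 fell, against 5.24% and 6.02% of all genes. Rasal1, such an activator, stood at 4.22, 3.53, 8.9, 9.86 and 7.94 CPM in EC KO and at 1.95 to 3.97 CPM in HSC wt, and rose by 1.33 (edgeR adjusted p = 0.0183). Its call was lost in the absence of EC KO 24, EC KO 25 or HSC wt 19 and with the mast cell or macrophage covariate. Spred2, the closest relative of Spred1, differed by -0.19 without passing the test (edgeR adjusted p = 0.168).

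The gene with the smallest p was Serinc3 (chromosome 2, 163623273 to 163645143), a multipass membrane protein of the family that incorporates serine into membrane lipids and restricts retroviruses. It stood at 171, 168, 168, 165 and 177 CPM in EC KO and at 2126, 2228, 1892, 1817 and 1869 CPM in HSC wt. The groups did not come near each other, and the EC KO libraries agreed across both Xist-positive and Y-positive animals. Serinc3 was 11.7-fold lower in EC KO (log2 difference -3.55, SE 0.08, edgeR adjusted p = 2.09e-20), and the call held under all 26 alternatives run. It stood at 2006 ± 216 CPM in Spred1 wt, 1933 in HSC KO and 1991 in global KO, so that the low level was found in EC KO alone among the 5 groups. Of the 4 Serinc genes tested, Serinc3 was the only one called. The antisense transcript 0610039K10Rik, which overlaps the start of Serinc3, was also called lower, at 0.104 against 0.55 CPM. Because the strand setting of the counting is not given in the sources used here, its reads cannot be told apart from those of Serinc3.

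The bases before the annotated start of Serinc3 are shown because they lie inside 0610039K10Rik, the other transcript called lower there. The sequence comes from RefSeq (GRCm38.p6, chr2:163645144-163645393, minus strand, 250 bases), and the capitals mark TGACG, the core of the binding site of cAMP-response factors, searched on both strands and found 1 time.
Serinc3: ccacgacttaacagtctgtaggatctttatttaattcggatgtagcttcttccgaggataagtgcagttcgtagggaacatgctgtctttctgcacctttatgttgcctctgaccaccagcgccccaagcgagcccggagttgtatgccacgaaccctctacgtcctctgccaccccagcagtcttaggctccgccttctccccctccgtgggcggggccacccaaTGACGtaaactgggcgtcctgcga
Of the 10320 tested genes with an entry, 27.2% held TGACG or its complement in the same window.

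Neighbours of Serinc3 differed as well. Hnf4a, a nuclear receptor best known from liver, stood at 9.2, 9.78, 16.9, 14.3 and 16.5 CPM in EC KO and at 45.3, 42.8, 28.1, 25.5 and 29.1 CPM in HSC wt. The ranges did not overlap, and it fell by 1.35 (SE 0.23, edgeR adjusted p = 0.000476). Pkig, an inhibitor of protein kinase A, fell by 0.90 (edgeR adjusted p = 2.39e-05) from 25.2 ± 2.12 to 13.5 ± 0.962 CPM. Both genes lie within 1 Mb of Serinc3.

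Other genes called lay near each other along a chromosome as well. Of the 166 genes called with a log2 difference over 1 in size, 70 lay within 1 Mb of another such gene, in 27 runs of which 10 held 3 or more. The runs include tandem families such as the Mcpt and Bcl2a1 genes, and the share expected of genes in general was not computed. Chromosomes 4 and 15 held 24.7% of the 166, whereas they held 10.2% of all genes tested. The share of tested genes called was 17.4% on chromosome 15, 16.6% on chromosome 4 and 14.5% on chromosome 5, against 11.3% overall.

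On chromosome 15, Polr2k, a small subunit shared by the RNA polymerases, stood at 5.14, 5.55, 7, 5.52 and 4.54 CPM in EC KO and at 14.9, 16.9, 18.2, 18.6 and 17.6 CPM in HSC wt. It was 3.1-fold lower (log2 difference -1.63, SE 0.11, edgeR adjusted p = 1.88e-10). Its neighbour Snx31, a sorting nexin, was at 0 in 3 EC KO libraries and at 0.161 and 0.084 CPM in the others, against 1.74 to 3.12 CPM in HSC wt (edgeR adjusted p = 5.77e-07). Rida, an enzyme that clears reactive imines, went the other way. It stood at 31.3, 27.9, 34.9, 38.1 and 33.8 CPM in EC KO and at 14.3, 11.4, 13.4, 13.5 and 15.9 CPM in HSC wt, and rose 2.41-fold (log2 1.27, SE 0.10, edgeR adjusted p = 1.63e-08). Vps13b, a lipid transfer protein of the Golgi encoded between Rida and Polr2k, fell by 0.54 (edgeR adjusted p = 2.21e-07). Fzd6, a receptor for Wnt ligands, stood at 5.77, 4.28, 6.71, 6.38 and 9.91 CPM in EC KO and at 34.3, 30.2, 23.3, 18.8 and 23.3 CPM in HSC wt, and fell by 1.97 (SE 0.22, edgeR adjusted p = 3.87e-06).

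Ncf4, the p40 subunit of the oxidase with which phagocytes make superoxide, was the clearest rise in a gene of known myeloid function. It stood at 116, 108, 117, 108 and 94.7 CPM in EC KO and at 44.5, 44.6, 52.6, 57.3 and 49.7 CPM in HSC wt. Ncf4 rose 2.19-fold (log2 1.13, SE 0.08, edgeR adjusted p = 2.66e-09), and the call held under all 26 alternatives. All 6 oxidase genes tested were higher in mean level, with a median log2 difference of 0.29. Of these, 2 rose and 0 fell, against 5.24% and 6.02% of all genes. The other was Cyba, the p22 membrane subunit, which rose by 0.41 (edgeR adjusted p = 0.03) and lost its call in the absence of EC KO 22, 24 or 25 or of HSC wt 17 or 18, with the macrophage covariate, and when a trend with transcript length was removed (log2 0.18, edgeR adjusted p = 0.291).

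Apobec3, a cytidine deaminase that edits retroviral DNA, was lower in EC KO with a gap among its own libraries. It stood at 90.2, 224, 211, 92.8 and 89.8 CPM in EC KO and at 377, 358, 350.2, 373 and 374 CPM in HSC wt. EC KO 23 and 24 lay apart from the other three, and this division did not follow Xist or Y transcripts. Apobec3 fell by 1.37 (SE 0.19, edgeR adjusted p = 6.84e-05), and the overlapping transcript D730005E14Rik was called lower too, at 2.02 against 7.24 CPM. Csnk1e, a kinase of the circadian clock encoded nearby, fell by 0.72 (edgeR adjusted p = 5.17e-06).

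On chromosome 4, Hmgn2, a nucleosome-binding protein, stood at 229, 255, 256, 234 and 232 CPM in EC KO and at 420.4, 434, 489.6, 484 and 494 CPM in HSC wt. It fell by 0.95 (SE 0.07, edgeR adjusted p = 9.03e-10) in 5 of 5 libraries. Ncmap, a protein of myelinating Schwann cells, was near the limit of counting in HSC wt, at 0.0464 to 0.24 CPM, and stood at 7.99, 5.69, 8.75, 5.79 and 7.52 CPM in EC KO (log2 5.76, SE 0.51, edgeR adjusted p = 7.57e-08). Fuca1, a lysosomal fucosidase, rose by 0.67 (edgeR adjusted p = 1.05e-05). Atp8b5, a phospholipid transporter, was almost absent from EC KO, at 0.586, 0.706, 1.07, 0.59 and 0.462 CPM. In HSC wt it stood at 30.7, 35.8, 31.3, 31.1 and 23.9 CPM, and it fell by 5.48 (SE 0.65, edgeR adjusted p = 1.26e-05). Il11ra1, the receptor for interleukin 11, fell by 1.66 (edgeR adjusted p = 2.63e-05) from 32.1 ± 2.32 to 10.2 ± 6.17 CPM, with EC KO 24 at 21 CPM above the other EC KO libraries. Rusc2, a neighbour of Atp8b5, fell by 1.26 (edgeR adjusted p = 0.000595).

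Elsewhere, Ffar2, a receptor for short-chain fatty acids, fell by 1.62 (edgeR adjusted p = 0.00018), and Wdfy3, an adaptor in selective autophagy, fell by 0.95 (edgeR adjusted p = 7.13e-06). Kif21a, a kinesin, rose by 1.53 (edgeR adjusted p = 0.000909), Srd5a1, which converts testosterone to dihydrotestosterone, rose by 1.25 (edgeR adjusted p = 0.000465), and the uncharacterised 5830444B04Rik rose by 2.01 (edgeR adjusted p = 0.00416). Gm4737 divided the EC KO libraries. It stood at 53.4, 29.6, 31.3, 1.02 and 0.546 CPM in EC KO and at 0.378 to 0.974 CPM in HSC wt, so that EC KO 25 and 26 were close to the controls (log2 5.30, SE 0.80, edgeR adjusted p = 0.000186). The libraries high in it differed from those high in Apobec3. The groups other than EC KO had mean levels of Serinc3, Polr2k, Rida, Ncf4, Hmgn2 and Fzd6 close to those of HSC wt. Ncmap was near the limit of counting in them as well, at means of 0.0469 to 0.2 CPM. Atp8b5 spread widely, at 33.2 ± 17.5 CPM in Spred1 wt, 23.9 ± 19.4 in HSC KO and 20.3 ± 15.4 in global KO. Its lowest library outside EC KO, HSC KO 12, held 4.61 CPM. When a difference of at least 0.5 on the log2 scale was required, 30 genes remained, 23 lower and 7 higher. Among them were Ncmap, Atp8b5 and the genes named with them.

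**Figure D1:**
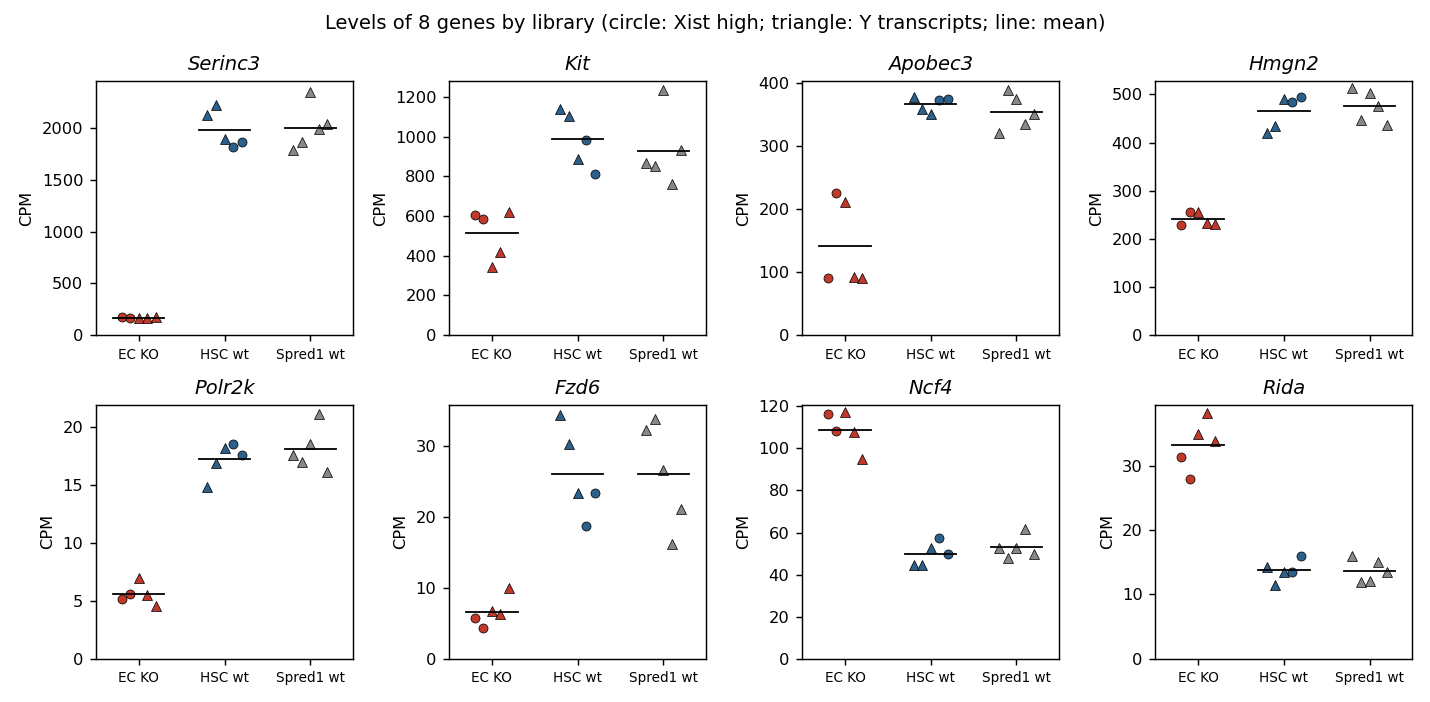
Level in CPM (y axis) of Serinc3, Kit, Apobec3, Hmgn2, Polr2k, Fzd6, Ncf4 and Rida in each library of EC KO, HSC wt and Spred1 wt (x axis), with circles for libraries with Xist, triangles for those with Y transcripts and a line at the mean. Serinc3 lay between 165 and 177 CPM in EC KO and at 1817 CPM or above in HSC wt, Apobec3 fell into a pair near 211 to 224 CPM and a trio near 90 CPM in EC KO, and Ncf4 and Rida were the genes of the 8 that were higher in EC KO.

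The small differences followed transcript length. Genes higher in EC KO had a median transcript length of 1.75 kb and genes lower in EC KO one of 6.82 kb, against 3.27 kb for all genes. Among the 931 genes up to 1 kb the median log2 difference was 0.24 and 17.5% were called higher. Among the 1074 genes over 8 kb it was -0.20 and 28.4% were called lower. Across genes, which are not independent replicates, the Spearman correlation of the log2 difference with length was -0.381 over 13379 genes, and it was -0.312 against Spred1 wt and 0.15 between the Spred1-intact groups.

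Each library was also read on its own, as the median log2 deviation of genes under 1.5 kb minus that of genes over 6 kb. It was 0.227, 0.195, 0.389, 0.275 and 0.0826 in EC KO and -0.223, -0.17, -0.106, -0.0438 and -0.0076 in HSC wt, with no overlap. The Spred1 wt libraries lay between -0.152 and 0.121. When the trend with length was removed from each library, an alternative chosen after seeing the data, 605 genes were called in EC KO vs HSC wt, 268 higher (2%) and 337 lower (2.52%), and 505 of them were among the 1507. The RNA integrity of the samples is not given in the sources used here. Counts after this correction are given with the gene groups below. Where a list gives no share, its counts before correction stand against 5.24% (higher) and 6.02% (lower) of all genes.

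**Figure D2:**
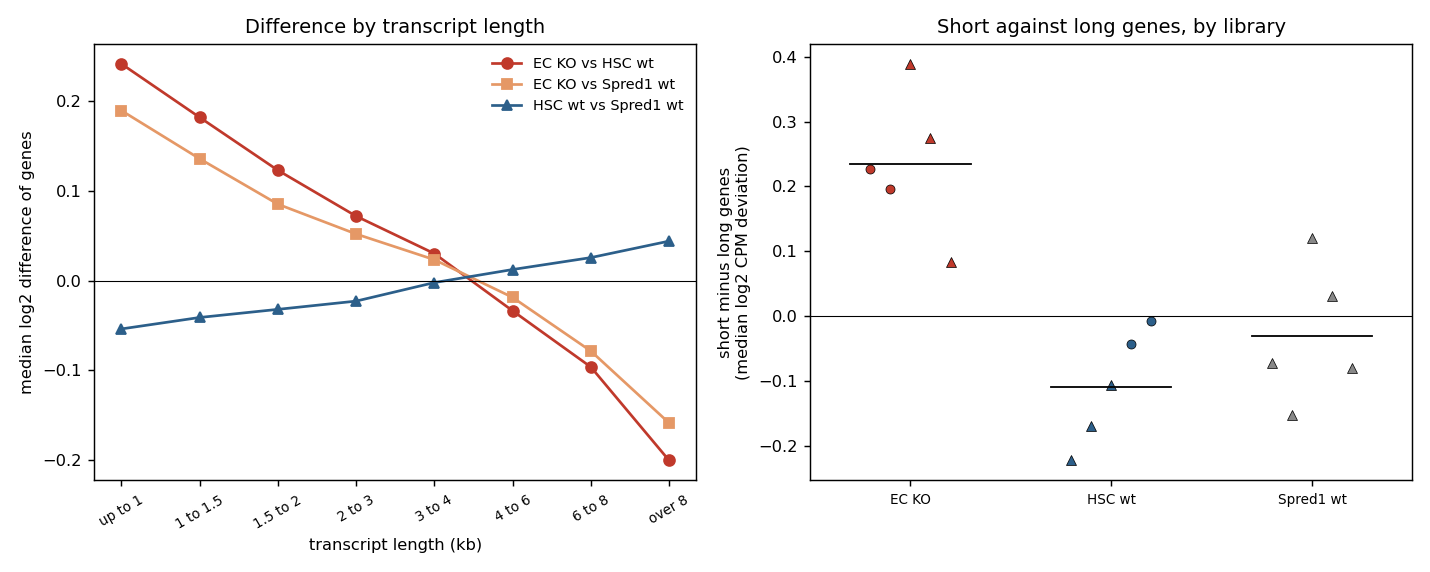
Left, median log2 difference of genes (y axis) in 8 bins of transcript length in kb (x axis) for EC KO against each Spred1-intact group and for these groups against each other; right, the short-minus-long value of each library (y axis, log2) by group, with circles for Xist, triangles for Y transcripts and a line at the mean. EC KO against HSC wt went from 0.24 in the shortest bin to -0.20 in the longest, and every EC KO library lay above every HSC wt library in the right panel.

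Cytosolic ribosomal protein genes, which encode the protein part of the ribosome and have short transcripts, rose together. Of 77 tested, 59 rose and 1 fell, against 5.24% and 6.02% of all genes, with a median log2 difference of 0.33. Their summed level was 63760 to 82840 CPM in EC KO and 56450 to 60600 CPM in HSC wt. Rpl23 stood at 1308, 1204, 1542, 1440 and 1262 CPM in EC KO and at 1094, 1069, 1029, 1015 and 1087 CPM in HSC wt (log2 0.35, SE 0.06, edgeR adjusted p = 0.000338). Rpl37a rose by 0.45 (edgeR adjusted p = 0.000909), Rps26 by 0.43 (edgeR adjusted p = 0.00432) and Rps20 by 0.40 (edgeR adjusted p = 0.00839), each higher in 5 of 5 libraries. After length correction 9 of the 77 rose and 2 fell, with a median of 0.12. The count was 33 without EC KO 24.

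Rplp0, which encodes a stalk protein of the ribosome and is often used as a reference gene, is not in that list and moved the opposite way. It stood at 1150, 1084, 1112, 1081 and 937 CPM in EC KO and at 1793, 1870, 1807, 1808 and 1866 CPM in HSC wt, and fell by 0.77 (SE 0.09, edgeR adjusted p = 1.1e-05). Rps4l, the listed gene that fell, is a copy of Rps4x and its reads are uncertain for that reason, as are those of other ribosomal protein genes with processed copies.

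Messages of ribosomal proteins start with a run of pyrimidines, the 5′ terminal oligopyrimidine motif through which mTOR controls their translation. Start windows are shown for 3 of the genes that rose, from 10 bases before to 20 bases after the RefSeq start (GRCm38.p6). Capitals mark CTTTC on the sense strand. Rpl15 and Rpl38 have pyrimidines from the annotated start on. In Rps26 purines stand at the annotated start and CTTTC lies further downstream.
Rpl15 (chr14:18270967-18270996, minus strand): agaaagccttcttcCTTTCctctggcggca
Rpl38 (chr11:114668570-114668599, plus strand): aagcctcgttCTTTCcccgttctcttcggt
Rps26 (chr10:128626487-128626516, minus strand): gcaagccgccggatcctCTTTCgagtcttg
The letters CTTTC stood in this window in 12 of the 57 ribosomal protein genes with an entry (21.1%), in 9 of the 45 that rose (20%) and in 3.27% of tested genes.

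Subunits of oxidative phosphorylation, also short, were higher in level in all 40 genes tested, 13 of which rose and 0 fell, with a median of 0.30. Ndufb3, of complex I, stood at 47.3, 47, 61.8, 50.4 and 41.9 CPM in EC KO and at 29, 33.6, 34.5, 41.3 and 38.4 CPM in HSC wt (log2 0.49, SE 0.10, edgeR adjusted p = 0.00318). Ndufa1 and Ndufa6 of the same complex rose by 0.48 and 0.43 (edgeR adjusted p = 0.00505 and 0.00267), and Cox7c of complex IV by 0.48 (edgeR adjusted p = 0.0066). After length correction 1 of the 40 was called. Without EC KO 24 the count was 5, without EC KO 25 and without HSC wt 18 it was 7 each, without HSC wt 17 it was 6, and without EC KO 26 it was 26.

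Of 29 genes of S phase, in which DNA is copied, 6 rose and 0 fell (median 0.17), whereas of 27 genes of G2 and M phase 0 were called by edgeR (median 0.08), with 5 at an unadjusted p under 0.05 and 2 higher by DESeq2. Slbp, which binds the stem-loop of histone messages, rose by 0.31 (edgeR adjusted p = 0.00297) and Tyms, which makes thymidylate, by 0.29 (edgeR adjusted p = 0.0109). The S phase count was 3 after length correction, 2 in the absence of EC KO 23, HSC wt 17 or HSC wt 18, 3 in the absence of EC KO 24 or EC KO 25, and 11 in the absence of EC KO 26. Ccnd1, the cyclin D1 gene, was highest in the EC KO libraries with Xist, at 86 and 78.5 CPM, and stood at 56.4, 49.2 and 48.9 CPM in the others and at 36.1 to 54.1 CPM in HSC wt (log2 0.41, edgeR adjusted p = 0.126). Cdk6, the kinase it activates, fell by 0.36 (edgeR adjusted p = 0.00504), a call lost after length correction.

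Immediate early genes, which growth factor and stress signals switch on within minutes, were lower. Of 23 tested, 0 rose and 4 fell, against 5.24% and 6.02% of all genes. In mean level 22 were lower, and the median was -0.61. Fos stood at 609, 331, 242, 408 and 619 CPM in EC KO and at 1353, 1424, 1077, 587 and 603 CPM in HSC wt. HSC wt 17, 18 and 19, the libraries with Y transcripts, were high. HSC wt 20 and 21, those with Xist, lay within the EC KO range. The mean log2 CPM of the list was 6.831, 7.11, 6.651, 6.15 and 6.165 in HSC wt. In EC KO it was 6.131, 5.501, 5.2, 5.769 and 6.449. Fos fell by 1.19 (SE 0.36, edgeR adjusted p = 0.0342). Fosb, a relative of Fos, followed the same libraries, at 758, 359, 128, 293 and 635 CPM against 1827, 1926, 1309, 698 and 771 CPM. Fosb fell by 1.59 (SE 0.50, edgeR adjusted p = 0.0438). Egr3, a zinc finger factor, fell by 1.72 (edgeR adjusted p = 0.0479) and Atf3, a stress-induced repressor, by 2.39 (edgeR adjusted p = 0.04), both in 5 of 5 libraries. Egr1 stood at 326 ± 177 against 547 ± 161 CPM and was not called (edgeR adjusted p = 0.285). The count of calls was 0 in the absence of EC KO 24 or 25 or of HSC wt 17, 18 or 19, was 1 without EC KO 23 and 6 without EC KO 26, and was 1 after length correction.

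The promoters of Fos, Fosb and Atf3 are shown because each held TGACG, marked in capitals on either strand, in the 250 bases before the RefSeq start (GRCm38.p6). It was present 2 times in Fos, and 1 time each in Fosb and Atf3.
Fos (chr12:85473640-85473889, plus strand): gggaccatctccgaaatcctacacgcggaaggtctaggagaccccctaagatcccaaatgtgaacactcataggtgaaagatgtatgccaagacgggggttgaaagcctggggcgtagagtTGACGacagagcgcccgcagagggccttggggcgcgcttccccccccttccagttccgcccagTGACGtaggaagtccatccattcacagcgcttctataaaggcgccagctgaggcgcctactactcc
Fosb (chr7:19310046-19310295, minus strand): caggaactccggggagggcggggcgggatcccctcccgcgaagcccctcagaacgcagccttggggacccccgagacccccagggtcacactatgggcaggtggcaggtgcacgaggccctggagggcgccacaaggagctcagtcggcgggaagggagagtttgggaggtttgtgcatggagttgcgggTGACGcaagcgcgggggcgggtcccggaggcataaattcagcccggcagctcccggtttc
Atf3 (chr1:191183334-191183583, minus strand): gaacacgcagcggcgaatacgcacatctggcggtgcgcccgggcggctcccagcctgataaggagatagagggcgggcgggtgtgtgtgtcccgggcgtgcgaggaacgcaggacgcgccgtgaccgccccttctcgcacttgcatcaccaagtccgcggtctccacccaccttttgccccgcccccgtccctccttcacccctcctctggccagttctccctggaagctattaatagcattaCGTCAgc
Of the 19 immediate early genes with an entry, 11 held the motif (57.9%), called or not, against 27.2% of tested genes.

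Genes that report on ERK activity, the pathway Spred1 restrains, had a median log2 difference of 0.03. Of 18 tested, 2 rose and 1 fell, against 5.24% and 6.02% of all genes. Their summed level was 412.2 to 1074 CPM in EC KO (median 491) and 862 to 1289 CPM in HSC wt (median 1125). The mean log2 CPM of the list was 4.082 and 3.807 in EC KO 22 and 23. It was 3.35, 3.301 and 3.538 in EC KO 24, 25 and 26, and 3.363 to 3.819 in HSC wt. Spry4, a feedback inhibitor, rose by 0.96 (edgeR adjusted p = 0.0397) at 3.77 ± 1.34 against 1.95 ± 0.571 CPM, Etv1, an ETS factor, rose by 1.26 at levels near 1 CPM (edgeR adjusted p = 0.0339), and the gene that fell was Spred1. All 3 calls were lost after length correction and without EC KO 24. Dusp6, the ERK phosphatase, stood at 77.5 ± 18.5 against 81.2 ± 17.1 CPM (edgeR adjusted p = 0.835).

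Of 27 components of the RAS-MAPK cascade, 1 rose and 4 fell, against 5.24% and 6.02% of all genes. Ksr1, a scaffold of the cascade, stood at 30.1, 30.2, 24.8, 25.9 and 25.7 CPM in EC KO and at 44.9, 41.7, 44.2, 36.9 and 35 CPM in HSC wt, without overlap, and fell by 0.57 (SE 0.10, edgeR adjusted p = 0.00108). Nf1, which encodes neurofibromin, fell by 0.37 (edgeR adjusted p = 0.0046), Sos1, a RAS exchange factor, by 0.31 (edgeR adjusted p = 0.012) and Braf, a kinase, by 0.28 (edgeR adjusted p = 0.0357). Nras rose by 0.18 (edgeR adjusted p = 0.0229) and lost its call in the absence of EC KO 24 or 25 or of HSC wt 17, 18 or 19. The transcripts of Nf1, Sos1 and Braf are long, and after length correction 1 gene rose and 1 fell, Nras and Ksr1.

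Of 24 components of PI3K-AKT-mTOR signalling, 0 rose and 5 fell (median -0.11), against 5.24% and 6.02% of all genes. Foxo3, a transcription factor that keeps stem cells quiescent, stood at 49.7, 50.9, 40.3, 47.6 and 60.8 CPM in EC KO and at 80.5, 75.9, 66.8, 64.6 and 67.3 CPM in HSC wt, and fell by 0.51 (SE 0.12, edgeR adjusted p = 0.00678). Mtor fell by 0.38 (edgeR adjusted p = 0.000312), its partners Rptor and Rictor by 0.36 and 0.41 (edgeR adjusted p = 0.00693 and 0.0398), and its inhibitor Tsc2 by 0.19 (edgeR adjusted p = 0.0367). Foxo3 was the 1 gene of this list still called after length correction, which moved the list median to 0.02, and 3 genes of the list were called in the absence of EC KO 22, EC KO 24, EC KO 25 or any HSC wt library but HSC wt 21.

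Among genes that define stem cells, Kit had the firmest difference. Kit encodes the receptor for stem cell factor and is also the antigen by which LSK cells are sorted. It stood at 607, 587, 344, 419 and 622 CPM in EC KO and at 1138, 1106, 889.9, 984 and 813 CPM in HSC wt, so that every EC KO library was lower. Kit fell by 0.93 (SE 0.18, edgeR adjusted p = 0.00162), a call that held with each library left out in turn and after length correction, and against Spred1 wt it fell by 0.85 (edgeR adjusted p = 0.00447). Of 23 stem cell genes, 0 rose and 3 fell (median -0.19), against 5.24% and 6.02% of all genes. The others that fell were Slamf1, the CD150 receptor of long-term stem cells (fell by 1.01, edgeR adjusted p = 0.0325), and Tek, the angiopoietin receptor (fell by 0.80, edgeR adjusted p = 0.025). The list count was 1 in the absence of EC KO 22, EC KO 24, HSC wt 17 or HSC wt 18 and 5 in the absence of EC KO 26 or HSC wt 20, and it was 2 after length correction, which ended the call of Slamf1.

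The other LSK markers were present in all libraries and were not called. Ly6a, which encodes Sca-1, stood at 57 ± 7.39 against 55.7 ± 17.7 CPM, Cd34 at 748 ± 22.4 against 795 ± 122 CPM, Cd48 at 124 ± 24.8 against 124 ± 9.42 CPM and Cd27 at 130.3 ± 20.4 against 126 ± 20.7 CPM. Flt3, the marker of multipotent progenitors, was high in EC KO 24, 25 and 26, at 602, 655 and 631 CPM, and stood at 438 and 304 CPM in EC KO 22 and 23 and at 252 to 481 CPM in HSC wt (log2 0.54, edgeR adjusted p = 0.126).

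Of 21 integrins and homing receptors, through which stem cells hold to the niche, 1 rose and 3 fell, against 5.24% and 6.02% of all genes, and 0 rose and 2 fell after length correction (median -0.12, then -0.14). Itga4, the chain of VLA-4 that binds endothelial VCAM-1, stood at 353, 399.7, 283, 341 and 390.3 CPM in EC KO and at 698, 558, 569, 597 and 542 CPM in HSC wt, without overlap. It fell by 0.75 (SE 0.15, edgeR adjusted p = 0.00317) and kept its call after length correction, but against Spred1 wt, at 432 ± 139.9 CPM, the difference was -0.29 (edgeR adjusted p = 0.242). Itga5 and Itga6 fell by 0.33 and 0.47 (edgeR adjusted p = 0.0076 and 0.0473), and Itga6 lost its call after length correction and in the absence of any 1 of 9 libraries. Cxcr4, the receptor for the retention factor CXCL12, rose by 0.56 (edgeR adjusted p = 0.0222), a call lost after length correction and in the absence of EC KO 24, EC KO 25 or HSC wt 18.

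Further lists held single genes that passed. Rel, an NF-kB subunit, was the 1 of 22 in its list and stood at 17.4 to 20.9 CPM in EC KO and at 27.3 to 29.3 CPM in HSC wt (fell by 0.54, edgeR adjusted p = 0.00344). Stat5b, a transducer of cytokine signals, fell by 0.27 (edgeR adjusted p = 0.0195). Cebpe, a factor of granulocyte maturation, rose by 0.84 (edgeR adjusted p = 0.0376). The calls of Stat5b and Cebpe were lost after length correction, and that of Rel was not.

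**Figure D3:**
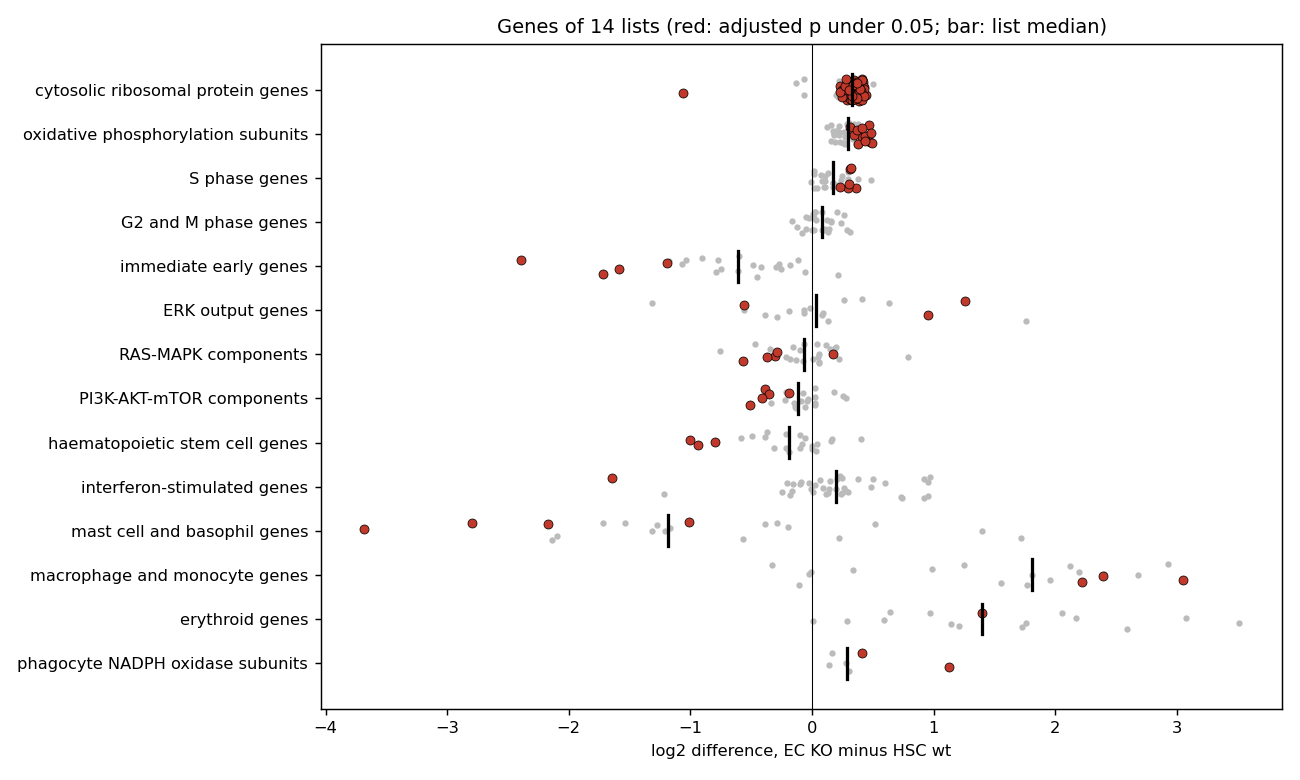
Log2 difference of EC KO minus HSC wt (x axis) for every tested gene of 14 lists (y axis), with red points for genes past an edgeR adjusted p of 0.05, grey points for the rest and a black bar at the list median. The median was 0.33 for ribosomal protein genes and 0.30 for oxidative phosphorylation, -0.61 for immediate early genes, and the mast cell and macrophage lists spread most widely, with medians of -1.19 and 1.81.

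Interferon-stimulated genes were examined because HSC wt mice had received poly(I:C), which induces interferon. Of 39 tested, 0 rose and 1 fell, 28 were higher in mean level in EC KO, and the median was 0.20. Their summed level was 1017 to 1587 CPM in EC KO and 1142 to 1347 CPM in HSC wt. The mean log2 CPM of the list was 3.422 and 3.524 in EC KO 22 and 23, below every HSC wt library (3.728 to 4.048). In EC KO 24, 25 and 26 it was 4.145, 4.363 and 4.573, above every HSC wt library. With the level of mast cell genes as a covariate 21 of the 39 fell and the median was -0.51, and with that of macrophage genes 1 fell and the median was -0.25. After length correction 1 fell, and against Spred1 wt the median was -0.20. The gene that fell was Oasl2, an antiviral protein like oligoadenylate synthetase, which stood at 3.39, 3.58, 6.61, 13.1 and 18 CPM in EC KO and at 32.2, 34.1, 21, 25.1 and 27.2 CPM in HSC wt. It fell by 1.64 (SE 0.44, edgeR adjusted p = 0.0173), lost its call without EC KO 24, and stood at 36.1 CPM in Spred1 wt. Irf7, the regulator of interferon genes, was low in EC KO 22 and 23, at 6.19 and 7.29 CPM, and stood at 19.1, 17.3 and 21.7 CPM in EC KO 24, 25 and 26 (edgeR adjusted p = 0.174). Isg15 stood at 3.15 ± 1.2 against 2.57 ± 0.852 CPM (edgeR adjusted p = 0.675), and Ifi47, a GTPase, at 84.3 ± 5.18 against 71.1 ± 2.44 CPM (edgeR adjusted p = 0.126).

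Genes of other cell types divided the EC KO libraries. In bulk RNA, fewer cells of a type and less RNA per cell cannot be told apart. Mast cell and basophil genes had a summed level of 7285, 7502, 3665, 4222 and 4504 CPM in EC KO and of 5738 to 9835 CPM in HSC wt. Of 20 tested, 0 rose and 4 fell (median -1.19), against 5.24% and 6.02% of all genes. Cma1, the mast cell chymase, stood at 642 and 856 CPM in EC KO 22 and 23, at 14.7, 5.84 and 8.61 CPM in EC KO 24, 25 and 26, and at 634 to 1199 CPM in HSC wt. The tryptase Tpsb2 followed it, at 1097 and 1273 CPM against 7.25, 3.91 and 5.25 CPM within EC KO. Neither was called (edgeR adjusted p = 0.426 and 0.578).

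The mast cell genes that were called lay below every HSC wt library in all EC KO libraries. Mcpt4, Gzmb and Slc18a2 were also lowest in EC KO 24, 25 and 26. Mcpt4, another chymase, stood at 33.7, 58.7, 3.75, 1.77 and 1.01 CPM in EC KO and at 167, 171, 122, 134 and 96.6 CPM in HSC wt (fell by 2.80, edgeR adjusted p = 0.0399). Gzmb, granzyme B, fell by 2.17 (edgeR adjusted p = 0.0451), Mcpt1 by 3.68 (edgeR adjusted p = 0.0329) and Slc18a2, the vesicular monoamine transporter, by 1.01 (edgeR adjusted p = 0.0477). In EC KO 22 and 23, Gzmb stood at 66 and 70 CPM and Slc18a2 at 178 and 164 CPM. In EC KO 24, 25 and 26 they stood at 7.1 to 13.4 and at 51.1 to 95 CPM. The HSC wt libraries held 107 to 173 and 198 to 256 CPM. The pseudogene Mcpt-ps1, beside Mcpt1, fell by 2.64 (edgeR adjusted p = 0.0143). Ednra, the endothelin receptor, was lowest in the same 3 libraries and fell by 1.87 (edgeR adjusted p = 0.0429). The list count was 0 in the absence of EC KO 24, EC KO 25, EC KO 26, HSC wt 17 or HSC wt 18 and 1 in the absence of HSC wt 19 or HSC wt 20, and among the Y-positive libraries alone 10 of the 20 fell, with a median of -2.91. After length correction 1 of the 20 fell, Mcpt1, and the call of Ednra was lost. Reads of the Mcpt genes, which are close copies, are uncertain between members.

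Macrophage and monocyte genes stood at a summed 347.7, 333.6, 706.6, 660.6 and 754.2 CPM in EC KO and at 359.2 to 514.4 CPM in HSC wt. Of 19 tested, 3 rose and 0 fell, with a median of 1.81 that became -0.14 among the Xist-positive libraries. Against Spred1 wt the median was 0.74, and after length correction 1 rose against HSC wt. Cd163, the haemoglobin scavenger receptor, stood at 5.39, 3.29, 34.2, 16.4 and 23.5 CPM in EC KO and at 2.11 to 4.68 CPM in HSC wt (log2 2.39, edgeR adjusted p = 0.0262), and at 7.58 ± 5.84 CPM in Spred1 wt (edgeR adjusted p = 0.285 against it). C1qa, a chain of complement C1q, stood at 1.88, 0.8, 15.3, 8.36 and 14.8 CPM against 0.634 to 1.3 CPM (log2 3.05, edgeR adjusted p = 0.0498), and at 4.62 ± 5.11 CPM in Spred1 wt (edgeR adjusted p = 0.592 against it). The count was 0 in the absence of EC KO 24 or of HSC wt 17, 18 or 20, was 5 in the absence of EC KO 23, and was 1 in the absence of EC KO 25, EC KO 26 or HSC wt 19.

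The same 3 libraries were high in genes of antigen presentation and lymphoid priming. The invariant chain Cd74 stood at 25, 16.1, 112, 97.1 and 111 CPM in EC KO and at 20.9 to 26 CPM in HSC wt (edgeR adjusted p = 0.0857), and H2-Aa, of MHC class II, at 9.87, 6.21, 56, 51.3 and 56.3 CPM against 8.56 to 11.9 CPM (edgeR adjusted p = 0.0869). All 10 MHC class II genes were higher in mean level and 0 were called by edgeR, with 4 at an unadjusted p under 0.05 and 2 higher by DESeq2. Ccr9, a homing receptor of lymphoid precursors, stood at 1.38, 1.46, 25.7, 22.9 and 36.2 CPM in EC KO and at 1.69 to 4.2 CPM in HSC wt and was called (log2 2.77, edgeR adjusted p = 0.0285). It stood at 12.2 ± 7.88 CPM in Spred1 wt, and its call was lost in the absence of any 1 of 7 libraries, among them EC KO 24, 25 and 26. Among genes outside the lists, the sialyltransferase St8sia1 (log2 2.12, edgeR adjusted p = 0.0111) and Pdzd4 (log2 1.52, edgeR adjusted p = 0.0069) were high in EC KO 24, 25 and 26 as well. They stood at 6.74 ± 2.29 and 11.3 ± 1.96 CPM in Spred1 wt and were not called against it (edgeR adjusted p = 0.336 and 0.35). Both calls were lost with the mast cell or the macrophage covariate.

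Of 15 erythroid genes, 1 rose and 0 fell, with a median of 1.40, and all 15 were higher in mean level. The mean log2 CPM of the list was 0.816 and 1.096 in EC KO 22 and 23, below every HSC wt library (1.244 to 1.625), and 2.873, 2.133 and 4.228 in EC KO 24, 25 and 26. The gene called was Hbb-b2, a beta globin, which was instead highest in EC KO 22, at 22.2, 12.7, 8.61, 4.88 and 14.4 CPM in EC KO and 4.11 to 5.57 CPM in HSC wt (log2 1.40, edgeR adjusted p = 0.0455). Its call was lost after length correction and in the absence of any 1 of 9 libraries, and its reads are uncertain because it is a close copy of other globin genes. Of 17 megakaryocyte and platelet genes, 1 rose and 1 fell, against 5.24% and 6.02% of all genes. Gp1ba, of the receptor for von Willebrand factor, stood at 12.1, 11.5, 4.47, 2.36 and 5.25 CPM against 13.4 to 23.3 CPM. It fell by 1.38 (edgeR adjusted p = 0.03), a call lost in the absence of EC KO 24, 25 or 26 or of HSC wt 17 or 18. Ppbp, a platelet chemokine, rose by 2.56 at levels of 0.878 to 6.32 CPM (edgeR adjusted p = 0.0336). The call of Ppbp was lost after length correction and in the absence of EC KO 24 or 25 or of HSC wt 18, 19, 20 or 21. Both calls were lost with the mast cell or macrophage covariate. Of 19 endothelial genes, the only call was Tek, which stem cells also express. Egfl7, an angiogenic factor, stood at 62.3 ± 13.5 against 48.9 ± 7.7 CPM (edgeR adjusted p = 0.27), and the summed endothelial level was 348.7 to 583.8 CPM in EC KO and 389.6 to 560.8 CPM in HSC wt. The part of these cell type genes in the other results was not tested beyond fits with their list mean as a covariate.

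Further genes were higher in all 5 EC KO libraries. Ccr1, a chemokine receptor of myeloid cells, stood at 20.2, 14.8, 22.3, 27.1 and 21.5 CPM in EC KO and at 5.38, 11.8, 8.16, 9.14 and 9.22 CPM in HSC wt, without overlap, and rose by 1.28 (SE 0.27, edgeR adjusted p = 0.00317). Fcnb, a ficolin of maturing granulocytes, rose by 1.86 (edgeR adjusted p = 0.0406), and Lrrn4, a leucine-rich repeat protein, by 1.69 (edgeR adjusted p = 0.00634), both higher in 5 of 5 libraries. The call of Fcnb was lost after length correction, with the mast cell or macrophage covariate and in the absence of any 1 of 8 libraries. That of Lrrn4 was lost with the mast cell covariate. Both calls were lost in the Y-positive and in the Xist-positive libraries alone. Against Spred1 wt neither gene was called (edgeR adjusted p = 0.195 for Fcnb and 0.0587 for Lrrn4).

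**Figure D4:**
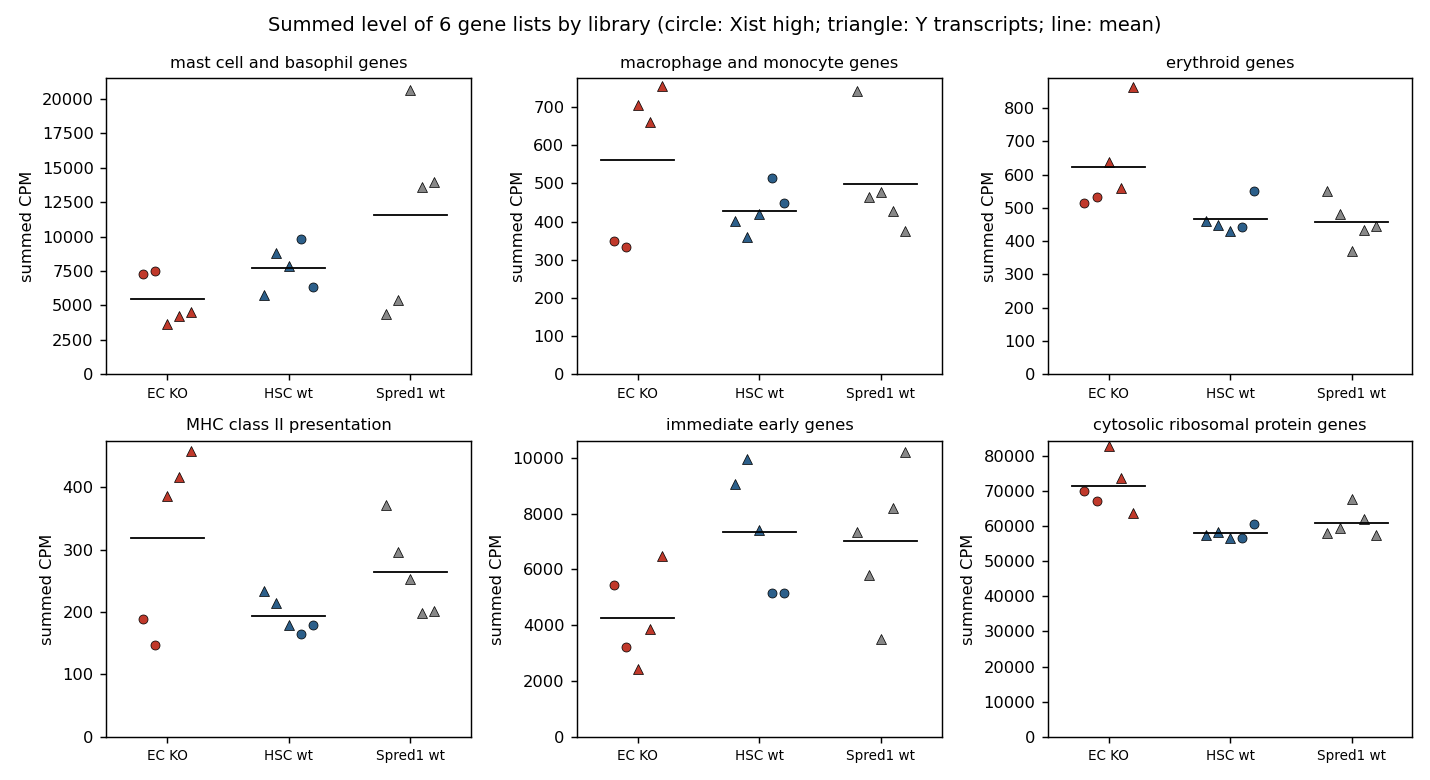
Summed level in CPM (y axis) of 6 gene lists in each library of EC KO, HSC wt and Spred1 wt (x axis), with circles for libraries with Xist, triangles for Y transcripts and a line at the mean. EC KO 22 and 23 lay at 7285 and 7502 CPM in mast cell genes and at 347.7 and 333.6 CPM in macrophage genes, the other EC KO libraries at 3665 to 4504 and 660.6 to 754.2 CPM, and the ribosomal protein sum was 63760 CPM or above in every EC KO library.

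Some genes were called against HSC wt and had a mean in Spred1 wt nearer to that of EC KO, although HSC wt and Spred1 wt did not differ in them by the test (edgeR adjusted p = 0.727 for Mmp9, 0.357 for Mmp8 and 0.609 for Mir6236) and their libraries overlapped. Mmp9, a gelatinase of neutrophils, ranged over 33.1, 34.9, 12, 26.4 and 3.92 CPM in HSC wt, from 1.61 to 5.38 CPM in EC KO and at 5.63 ± 6.3 CPM in Spred1 wt. It fell by 2.76 against HSC wt (edgeR adjusted p = 0.048) and differed by -0.79 from Spred1 wt (edgeR adjusted p = 0.604). Mmp8, the neutrophil collagenase, fell by 1.74 against HSC wt (edgeR adjusted p = 0.0144) and differed by -0.10 from Spred1 wt (edgeR adjusted p = 0.91). These 2 were the calls among 15 genes of mature neutrophils. Mmp9 lost its call after length correction and in the absence of EC KO 22, 23, 24 or 25 or of HSC wt 17, 18, 19 or 20.

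Mir6236 (chromosome 9, 110281287 to 110281409) is the third of these genes. The EC KO libraries held 210.2, 142, 127, 181 and 134 CPM of it against 589, 924, 435, 194 and 348 CPM in HSC wt, and it fell by 1.65 (SE 0.53, edgeR adjusted p = 0.0482). The mean was 179 CPM in Spred1 wt, 237 in global KO and 789 in HSC KO. Its mature sequence is shown to identify the read-rich feature, from RefSeq (GRCm38.p6, chr9:110281353-110281371, plus strand, 19 bases), with the seed (bases 2 to 8) in capitals.
mmu-miR-6236: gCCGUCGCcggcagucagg
The counts cover the hairpin gene as annotated in the table and were not made from a small RNA library. The call was lost after length correction and in the absence of any 1 of 8 libraries.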

How the data were processed

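The values are raw read counts per gene as deposited by the authors, whole numbers without normalization, for 26 libraries. The submitters' processing notes name STAR 2.6.0 and HTSeq 0.6.0, with bcl2fastq 2.18.0.12 and edgeR 3.28.1, and the build mm10. No annotation release and no strand setting are given in the sources used here. Of 24091 genes, 5297 had 0 counts throughout and 13379 passed filterByExpr (minimum count 10). All 26 libraries entered 1 fit of 5 group means (edgeR 4.0.16, R 4.3.3, TMM, robust quasi-likelihood F-test, two-sided, 21 residual degrees of freedom, biological coefficient of variation 0.205), and each comparison is a contrast called at a Benjamini-Hochberg adjusted p under 0.05. The labels give 5 mice each for EC KO and HSC wt, so p-values measure the spread between mice and their libraries. Log2 CPM used a prior count of 2. Total counts ranged from 14816071 to 26714325 per library.

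Members and the 38 gene lists were chosen with earlier results of these data known, and lists are described by counts and medians without a test. Named genes are Spred1, the 15 largest rises and falls called at a mean of at least 5 CPM, genes called in a list or within 1 Mb of another call, and the 2 of smallest p in each list. The text names a part of these. Srd5a1, Wdfy3, Cma1, Tpsb2, Egr1, Ccnd1, Isg15, Irf7, Egfl7, Dusp6, Spred2 and the LSK markers not called were named after their values were seen. Of the promoters sought, Egr3 is named only.

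Alternatives were DESeq2 1.42.0, upper-quartile or RLE normalization, testing without a filter or with one of 1 CPM in 5 libraries, the compared groups alone, limma 3.58.1 voom with quality weights, covariates for sex, mast cell and macrophage genes, a log2 threshold of 0.5 (glmTreat), the mean of both wild-type groups, Y-positive libraries only and each library left out. Chosen after seeing the data were correction for gene length (lowess, span 0.3), for length and GC (known for 98.2% of genes), and Xist-positive libraries only. A library was read as female at 500 CPM of Xist or more. The fit was tested on simulated data. Figures used Python 3.11.15 and matplotlib 3.10.9.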

Additional observations from a re-analysis of the deposited data

Results flagged for a closer look

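In groups of 5 libraries, a highest or lowest value is picked out when its gap to the nearest library exceeds 0.71 of the whole range of the group. Of 298 groups screened (111 genes and 38 list levels in EC KO and HSC wt), 13 held such a value, or 4.36%, and chance gives about 1 in 20.

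In EC KO, Il11ra1 was highest in EC KO 24 (21 CPM, next 9.66), Ffar2 in EC KO 23 (29.7, next 15.4) and Mcpt1 in EC KO 22 (0.837, next 0.107). Cd34 was lowest in EC KO 24 (710 CPM, next 750) and Cyba in EC KO 23 (56.8, next 70.8). The list level of integrins and niche homing receptors was lowest in EC KO 24, at 6.11 log2 CPM against 6.19 in the nearest library.

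In HSC wt, Mcpt-ps1 (11 CPM, next 8.95) and Rptor (104, next 93.9) were highest in HSC wt 20, Mcpt1 in HSC wt 17 (5.34, next 2.75), and Isg15 (4.08, next 2.41) and Spred2 (49.1, next 43.8) in HSC wt 18. The list level of p53 target genes was lowest in HSC wt 17, at 3.9 log2 CPM against 4.03, and that of replication-dependent histone genes highest in HSC wt 19, at 0.576 against 0.309.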

How the results depend on the processing

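EC KO vs HSC wt gave 1507 calls, and the count stayed within 1.5 times of that in 11 alternatives with all 10 libraries, from 1147 with the macrophage covariate to 2238 with the mast cell covariate, and at 1288 in Y-positive libraries. It was 30 when a log2 difference of 0.5 was required, 605 after length correction, 574 after length and GC correction, and 14 in Xist-positive libraries alone (2 mice against 2). Leaving out 1 library gave 746 (EC KO 24) to 2090 (EC KO 26). With a filter of 1 CPM 36% of calls were higher, against 46.5%.

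EC KO vs Spred1 wt (1065) gave 307 with the compared groups alone, 1824 with voom, 636 with sex and 2560 with the mast cell level as covariates, 33 with the log2 threshold, 683 and 666 after the length and the length and GC corrections, and 486 (EC KO 24) to 1891 (EC KO 26) with 1 library left out, with 631 without EC KO 25 and 580 without Spred1 wt 11. HSC wt vs Spred1 wt (4) gave 32 with DESeq2, 18 with voom, 25 and 10 with the mast cell and macrophage covariates, 1 each with the groups alone, the log2 threshold and Y-positive libraries, and 1 to 19 (without Spred1 wt 7) with 1 library left out. The cause of these shifts was not tested.

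Over all named genes and alternatives, 2238 values kept their side of the threshold (genes not called, such as Cd48 and Cd27, could change sign), 634 lost the call, 10 gained it and 1 called gene changed sign, Ccr9, to -0.30 in Xist-positive libraries (edgeR adjusted p = 0.962). No paired analysis was possible because the groups share no replicate numbers. Genes near 1 CPM, such as Etv1 and Snx31, are limited by depth.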

Other observations

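Of 19 genes of the integrated stress response, 1 rose, Trib3, a pseudokinase induced by ATF4, whose call was lost after length correction, and the median was 0.18. Of 15 genes of the BCL2 family, which decides on cell death, 2 rose (median 0.10), against 5.24% of all genes. They were Bcl2a1b, at 1.19 ± 0.617 against 0.4 ± 0.214 CPM (edgeR adjusted p = 0.0458), and Bcl2a1d, at 0.519 ± 0.188 against 0.16 ± 0.0953 CPM (edgeR adjusted p = 0.0313), near-identical copies whose reads are uncertain and whose calls were both lost after length correction. Of 51 replication-dependent histone genes, 1 rose (Hist1h4h, median 0.26), a call lost after length correction.

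In 5 further lists 0 genes were called by edgeR. Of 18 endoplasmic reticulum chaperones and related genes (median 0.11), 1 had an unadjusted p under 0.05 and 0 were called by DESeq2. Of 20 p53 targets (median -0.03), 4 had such a p and DESeq2 called 1, higher in EC KO. Of 14 genes of MHC class I presentation (median 0.03) 1 had such a p, and of 11 primary granule genes (median 0.24) 0 did, with 0 called by DESeq2 in either list. The 13 genes of plasma and plasmacytoid cells were all higher in mean level (median 0.57), 5 with such a p and 1 called by DESeq2. Their mean log2 CPM was 3.078 and 2.75 in EC KO 22 and 23 and 3.655 to 4.374 in EC KO 24, 25 and 26, against 2.734 to 3.216 in HSC wt, and against Spred1 wt the median was -0.23.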
